A study of Danio rerio with 16 samples.

Results

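Whole zebrafish embryos exposed to 10 µM AGN193109, a synthetic antagonist of the retinoic acid (RA) receptors, were compared with embryos exposed to the solvent DMSO alone. The comparison takes the 4 arrays titled with the 10 µM dose and the 4 titled DMSO, 8 of the 16 arrays of the series. It covers the probe sets that passed a filter on dim signals, which held 7118 annotated genes. Embryos were wild type, from an incross of AB/Wik hybrid parents, dechorionated, and collected at 11 hours post fertilization (hpf), the early somite stage. Exposure in both groups ran from 5.25 hpf and so lasted 5.75 hours. Both groups were listed at 2% DMSO, the solvent in which the antagonist stocks were made as well. The remaining 8 arrays are of embryos exposed to 1 µM AGN193109 from 5.25 hpf and to 0.33 µM all-trans RA from 6.5 hpf, with 4 arrays each. The labels call the 4 samples of a group independent and do not say how many embryos each sample pooled. Each value below is the log2 of a deposited Affymetrix intensity, a relative signal of 1 probe set, so levels of different genes are not set against each other.

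RA is made from vitamin A, with retinaldehyde as the intermediate, and acts by binding RA receptors that sit on DNA as partners of the retinoid X receptors. In vertebrate embryos it comes from the trunk mesoderm, is broken down by Cyp26 enzymes in the head and tailbud, and sets the anterior borders of hox genes in the hindbrain and anterior spinal cord. Several of its targets lower RA levels in turn, among them the Cyp26 enzymes and the retinaldehyde reductase Dhrs3. An antagonist such as AGN193109 occupies the receptors without activating them, and the comparison asks which genes differ after exposure to it between gastrulation and the first somites.

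The deposited intensities of the 16 arrays had medians of 72.8 to 78.3. Across the tested probe sets, the mean correlation of an array with its own group was 0.985 to 0.989 at 10 µM and 0.978 to 0.989 in DMSO. The median standard deviation (SD) between replicates was 0.175 at 10 µM and 0.196 in DMSO, against 0.254 at 1 µM and 0.226 under RA, all on the log2 scale. Tested genes above log2 4 in every DMSO sample were 22 of 22 for forebrain and eye and 24 of 24 for segmentation and tailbud. They were 15 of 15 for prechordal plate and notochord and 19 of 19 for epidermis. These 4 lists had 29, 25, 16 and 20 genes on the array, and the dimmer ones were not tested. Because that selection used the same level, such counts are high in part by design and do not check tissue identity. Some lists fell short even so, such as blood and vessel with 5 of 6. The heart field, T-box and pharyngeal list had 12 of 13 and the yolk syncytial layer 14 of 16. In a whole embryo, fewer cells of a type and less RNA per cell cannot be told apart.

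Some genes of RA feedback, some hox genes of groups 1, 3 and 4 and some hox cofactor genes (meis genes and tshz1) fell at 10 µM, and fewer genes rose. Calls below rest on limma with an adjusted p (Benjamini-Hochberg, over all tested probe sets) under 0.05. Of 11843 tested probe sets 37 were called lower, which is 0.312%, and 10 higher, which is 0.0844%, together 47 or 0.397%. They stand for 24 lower and 7 higher annotated genes out of 7118, each gene taken by its brightest probe set. A further 6 called probe sets were dimmer probe sets of annotated genes and 10, all lower, carried no gene symbol. At least a 2-fold difference was found for 22 of the 37 falls and 7 of the 10 rises. All 4 antagonist arrays lay outside the range of the 4 DMSO arrays for each of the 47, and over all tested probe sets 2.17% lay wholly below DMSO and 3.28% wholly above. The calls were made on these same arrays, so such separation largely follows from a call. Here and for single genes below, it describes the values and is no separate support. An unadjusted p under 0.05 was reached by 610 probe sets, or 5.15%. These shares, 0.397% called and 5.15% at an unadjusted p under 0.05, stand beside each list count below. With so few calls, 0 in a short list does not show that its genes were unaffected.

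**Figure D1:**
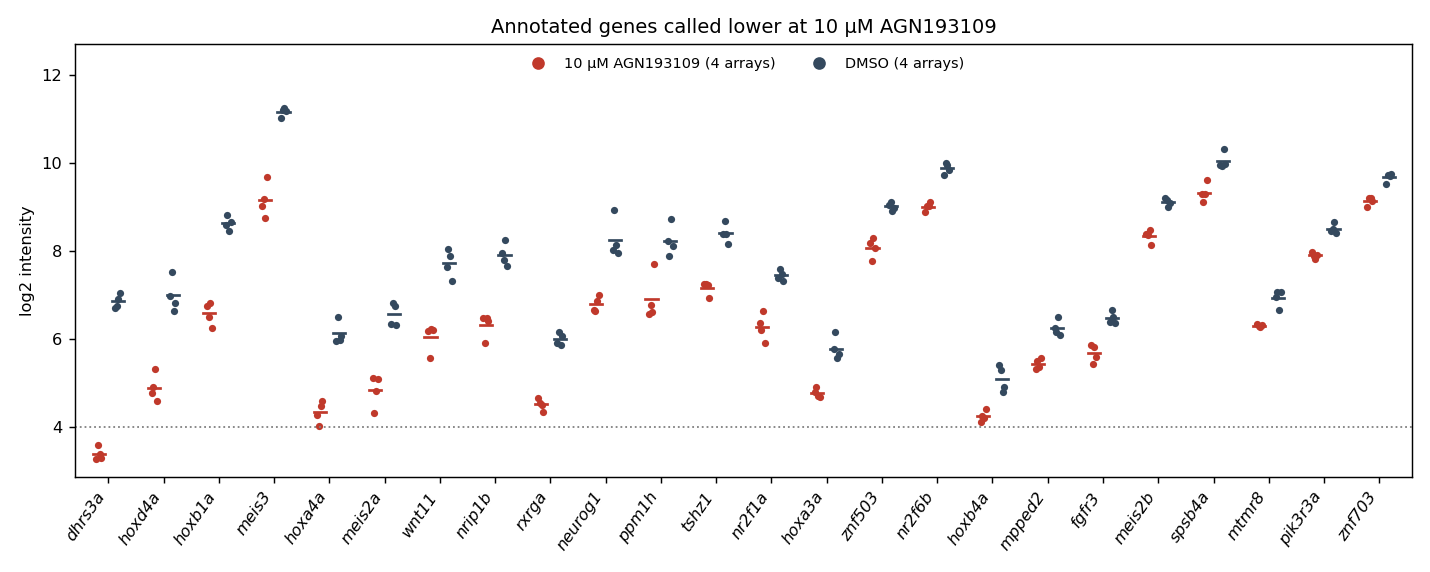
Log2 intensity (vertical axis) of the 24 annotated genes called lower, with each of the 4 arrays at 10 µM AGN193109 in red left of the 4 DMSO arrays in dark blue, group means as bars and genes in order of their fold change. The 2 groups do not overlap for any of the 24 genes, and dhrs3a is the gene whose antagonist arrays all lie below log2 4 (dotted line).

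The deepest fall of an annotated gene was that of dhrs3a, which encodes the enzyme that turns retinaldehyde back into retinol. Its 4 arrays at 10 µM read 3.26, 3.59, 3.38 and 3.29, against 6.70, 6.75, 6.90 and 7.04 in DMSO. The antagonist arrays all lay below log2 4, the level under which probe sets were treated as dim, and none came near the DMSO range. The gene was at least 7.20-fold lower (adjusted p = 6.34e-09). The 4 RA arrays, set against the same DMSO arrays, stood higher at 10.71, 10.93, 10.46 and 10.92.

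Other genes of RA feedback were called in both directions. The corepressor gene nrip1b, whose product binds nuclear receptors, read 6.46, 5.90, 6.46 and 6.41 at 10 µM, against 7.94, 7.79, 8.24 and 7.65 in DMSO. Every antagonist array was below every DMSO array, and nrip1b fell by 1.60 ± 0.21 (log2, standard error SE; adjusted p = 0.000742). The RA-degrading enzyme gene cyp26b1 instead rose. Its brightest probe set read 9.55, 9.44, 10.01 and 9.15 at 10 µM and 8.30, 8.67, 8.23 and 8.25 in DMSO, a log2 fold change of 1.18 ± 0.23 (adjusted p = 0.0266). The other 3 probe sets of cyp26b1 were called as well, with 1.14 ± 0.17, 1.01 ± 0.17 and 0.89 ± 0.16. The call of the brightest probe set ended in 6 of the 8 fits that left out 1 array (highest adjusted p = 0.121), while that of the probe set with 1.14 held without any single array. A second RA-degrading enzyme gene, cyp26a1, read 8.99 to 9.90 at 10 µM, and 10.30 to 10.72 in DMSO. These ranges do not overlap, but the log2 fold change of -0.97 ± 0.27 was not called (adjusted p = 0.314). The third family member, cyp26c1, had 4.79 to 5.54 at 10 µM and 4.26 to 5.88 in DMSO, so the antagonist arrays lay inside the DMSO range. Of the 7 tested genes of RA turnover and feedback, 2 were called lower and 1 higher, with a median log2 fold change of -0.12, against 0.01 over all tested probe sets.

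Of 8 tested genes that make, take up or carry RA, limma called 0, against 0.397% of all tested probe sets. At that share 0 of 8 says little about these genes. An unadjusted p under 0.05 was reached by 2 of the 8, against 5.15% of all tested probe sets. The log2 fold changes of the 8 genes ran from -0.49 to 0.45 with a median of -0.03. The RA-synthesising enzyme gene aldh1a2 read 9.25 to 9.82 at 10 µM and 8.65 to 9.63 in DMSO (0.33 ± 0.29, adjusted p = 1.00). The largest difference was that of crabp2b, which encodes a cellular RA-binding protein, with -0.49 ± 0.19 (adjusted p = 0.780).

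Among 6 tested retinoid receptor genes, 1 was called. The retinoid X receptor gene rxrga read 4.66, 4.54, 4.49 and 4.34 at 10 µM, against 5.91, 6.15, 5.85 and 6.06 in DMSO. The groups were separated by more than 1 log2 unit, and rxrga fell by 1.48 ± 0.15 (adjusted p = 3.01e-05). The RA receptor gene raraa was not called (-0.06 ± 0.13). Another, rarga, lay wholly above DMSO on its brightest probe set, with 8.16 to 8.57 at 10 µM and 7.46 to 8.09 in DMSO, at 0.51 ± 0.20 (adjusted p = 0.780). On a second rarga probe set the groups overlapped, with 8.09 to 8.56 at 10 µM and 7.02 to 8.22 in DMSO (0.56 ± 0.22, not called). Of 5 COUP-TF genes, orphan nuclear receptors that share response elements with the RA receptors, nr2f6b and nr2f1a were called lower. The arrays of nr2f6b read 8.88, 9.02, 9.01 and 9.10 at 10 µM, against 9.72, 9.99, 9.94 and 9.84 in DMSO. The gene fell by 0.87 ± 0.12 (adjusted p = 0.00154), with little spread in either group. The gene nr2f1a, with 5.90 to 6.64 at 10 µM and 7.32 to 7.59 in DMSO, fell by 1.16 ± 0.24 (adjusted p = 0.0407), a call that ended without any of 7 of the 8 arrays (adjusted p up to 0.155) and under 2 of 9 other settings. The COUP-TF genes nr2f2 and nr2f5, not called, had 0.35 and -0.18.

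The hox genes encode the homeodomain factors that give the hindbrain and trunk their positional identity, and low paralogue groups are expressed farther forward. The called falls lay in groups 1, 3 and 4, and the called rises in groups 2 and 11. These calls are of single genes, not of whole groups. In group 3 the uncalled hoxb3a, hoxd3a and hoxc3a had -0.29, -0.11 and 0.03. The uncalled hoxb2a of group 2 had -0.22, and hoxc11a of group 11, near log2 4, had 0.16. In groups 4 and 5, 3 of 8 tested genes were called lower and 0 higher, with a median log2 fold change of -0.84. In groups 1 to 3, 2 of 8 were lower and 1 was higher (median -0.22). In groups 6 to 8, limma called 0 of 8 genes, although 3 had an unadjusted p under 0.05 (median 0.13). The list of groups 9 to 13 had 11 tested genes, all of groups 9 to 11. No listed gene of groups 12 and 13 was tested, nor were hoxc10a, hoxa11a and hoxc11b. Of these 11 tested genes 1 was called higher and 0 lower, and 5 had an unadjusted p under 0.05 in the higher direction. All 11 fold changes were positive (median 0.40), under quantile normalization and median centring as well. Over all tested probe sets 52.8% of fold changes were positive, and over all tested genes 47.7%. In single-array omissions 10 of 11 were positive without 10 µM replicate 1 or 3.

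**Figure D2:**
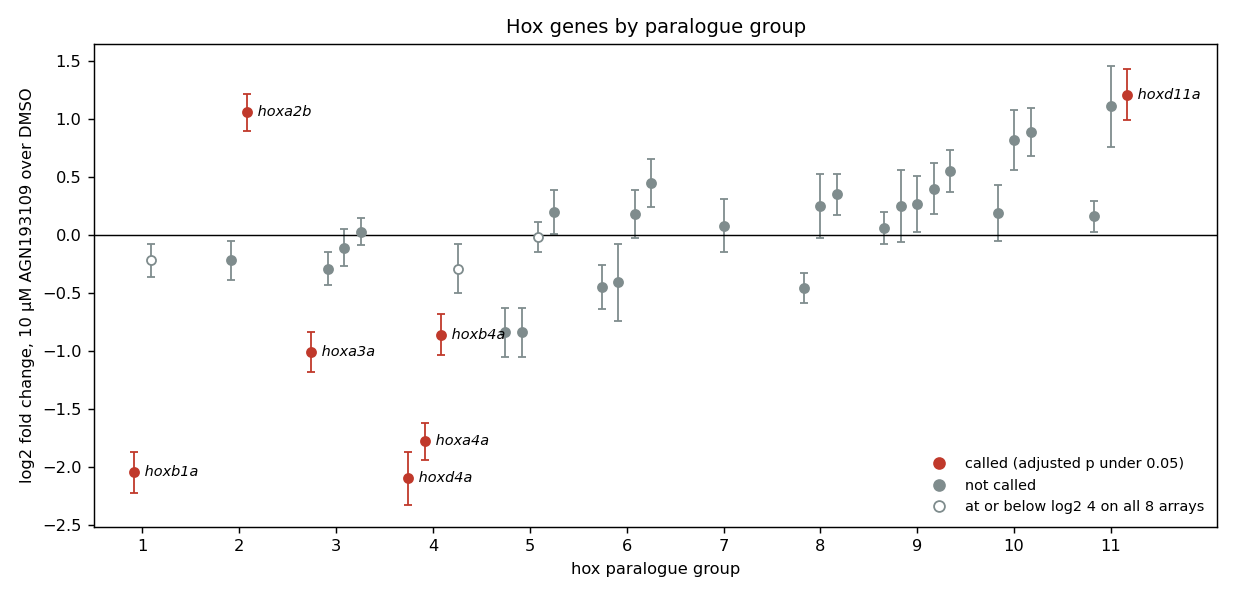
Log2 fold change at 10 µM AGN193109 over DMSO (vertical axis, bars are the SE of the model) of each tested hox gene, by paralogue group (horizontal axis). Called genes are red and named, others grey, and open symbols mark genes at or below log2 4 on all 8 arrays. The called falls sit in groups 1, 3 and 4 and the called rises in groups 2 and 11, where other genes of groups 2, 3 and 11 were not called. Uncalled genes of other groups reach similar values, such as hoxb5a at -0.84 and hoxa10b at 0.89.

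The group 1 gene hoxb1a, known for rhombomere 4 of the hindbrain, read 6.75, 6.49, 6.82 and 6.24 at 10 µM, against 8.58, 8.82, 8.46 and 8.66 in DMSO. Its groups lay far apart, and hoxb1a fell by 2.05 ± 0.18 (4.15-fold lower, adjusted p = 8.71e-06). The group 4 gene hoxd4a read 4.77, 4.89, 5.31 and 4.57 at 10 µM, against 6.97, 7.51, 6.63 and 6.82 in DMSO. It fell by 2.10 ± 0.23 (adjusted p = 0.000100), and a second, dimmer probe set of hoxd4a, with 3 of its 4 antagonist arrays below log2 4, was called lower as well (adjusted p = 0.00105). The group 4 gene hoxa4a read 4.27, 4.02, 4.46 and 4.58 at 10 µM, against 5.94, 6.49, 5.97 and 6.07 in DMSO, and so came close to log2 4 in the treated embryos. It fell by 1.78 ± 0.16 (adjusted p = 9.80e-06).

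The group 3 gene hoxa3a read 4.78, 4.90, 4.69 and 4.68 at 10 µM, against 5.76, 6.14, 5.56 and 5.64 in DMSO. Its groups did not overlap, and hoxa3a fell by 1.01 ± 0.17 (adjusted p = 0.00679), while a second probe set of it fell by 1.10 ± 0.19. The smallest called fall of a hox gene was that of hoxb4a, at 4.10, 4.23, 4.19 and 4.41 at 10 µM, against 5.39, 5.29, 4.79 and 4.90 in DMSO. The gap between the groups was small, and the call (-0.86 ± 0.18, adjusted p = 0.0472) ended without any of 7 of the 8 arrays and under 6 of 9 other settings (adjusted p up to 0.273). The group 5 genes of the b clusters had nearly the same value without a call: hoxb5a -0.84 ± 0.21 and hoxb5b -0.84 ± 0.21 (adjusted p = 0.145 each). Each had all 4 antagonist arrays below DMSO, but only narrowly. The highest antagonist and lowest DMSO arrays read 6.85 and 6.92 for hoxb5b, and both round to 5.58 for hoxb5a. Not every gene of these groups was measured equally well. The genes hoxc1a, hoxc4a and hoxa5a lay at or below log2 4 on all 8 arrays and passed the filter through other arrays, so no fold is given for them, and hoxa1a and hoxb1b were not among the tested genes. Without those below log2 4, groups 4 and 5 had 5 of 6 genes with a negative fold change and groups 1 to 3 had 5 of 7.

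The rises among hox genes were those of hoxa2b and hoxd11a. The group 2 gene hoxa2b, which acts in the anterior hindbrain and the second pharyngeal arch, read 6.16, 6.11, 6.78 and 6.14 at 10 µM, against 5.35, 5.04, 5.45 and 5.11 in DMSO. All antagonist arrays were higher, with replicate 3 well above the other three, and the log2 fold change was 1.06 ± 0.16 (adjusted p = 0.00333). The posterior gene hoxd11a read 5.78, 5.31, 6.32 and 5.74 at 10 µM, against 3.98, 4.83, 4.59 and 4.91 in DMSO. It rose by 1.21 ± 0.22 (adjusted p = 0.0173), a call that ended without any of 4 of the arrays (adjusted p up to 0.0766) and when the 8 arrays were fitted alone. Its neighbours in the same cluster had positive values without a call, hoxd10a with 0.82 ± 0.26 (adjusted p = 0.512) and hoxd9a with 0.55 ± 0.18 (adjusted p = 0.544). In another cluster, hoxa10b had 0.89 ± 0.21 (adjusted p = 0.0951) and hoxa11b 1.11 ± 0.35 (adjusted p = 0.512). For hoxa11b the antagonist arrays spread from 4.47 to 6.45 while the DMSO arrays spread from 3.97 to 4.29.

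By the gene order of assembly GRCz12tu, in which all 31 called genes were looked up, 3 pairs of called genes stand within 10 protein-coding genes of each other. All are hox pairs: hoxb1a with hoxb4a, hoxa3a with hoxa4a, and hoxd4a with hoxd11a. The last pair, with hoxd9a and hoxd10a between its genes, holds a fall and a rise in 1 cluster. Near-identical paralogues can bind the same probes, which these values cannot resolve.

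Some genes for partners of hox proteins were also among the falls. Of 12 tested cofactor genes 4 were called lower and 0 higher (median -0.12), against 0.397% of all tested probe sets called. Fold changes were negative for 6 of the 12 and positive for 6. The Meis proteins are homeodomain factors that bind DNA together with Hox and Pbx proteins. The arrays of meis3 read 9.01, 9.17, 8.74 and 9.68 at 10 µM, against 11.01, 11.20, 11.25 and 11.18 in DMSO. The DMSO arrays were tight and the antagonist arrays more spread, and meis3 fell by 2.01 ± 0.18 (adjusted p = 1.17e-05). The gene meis2a read 5.11, 4.31, 4.81 and 5.08 at 10 µM and 6.34, 6.80, 6.75 and 6.32 in DMSO. It fell by 1.72 ± 0.22 (adjusted p = 0.000500), with no overlap of the groups. The related meis2b fell by 0.77 ± 0.13 (adjusted p = 0.00941) and missed the threshold without DMSO replicate 1 (adjusted p = 0.0553). The uncalled meis1b had -0.30 ± 0.13. The teashirt zinc finger gene tshz1 read 7.25, 7.25, 7.22 and 6.93 at 10 µM, against 8.39, 8.67, 8.37 and 8.16 in DMSO, and fell by 1.23 ± 0.18 (adjusted p = 0.00227). The cofactor gene pknox2 had 0.61 ± 0.23 (adjusted p = 0.723). The tested pbx genes were not called, with 0.12 for pbx1a, 0.05 for pbx2, 0.10 for pbx3b and 0.04 for pbx4.

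Of 20 tested hindbrain segment genes outside the hox clusters, 2 were called lower and 0 higher (median 0.12). Over all 7118 tested genes 24 were called lower and 7 higher. Both called hindbrain genes were zinc finger genes of the NET family that limit hindbrain gene expression domains. The gene znf503 read 8.18, 7.76, 8.29 and 8.06 at 10 µM, against 9.05, 9.11, 8.91 and 8.97 in DMSO. The groups did not overlap, and znf503 fell by 0.93 ± 0.14 (adjusted p = 0.00380), called in all 9 other settings and without any single array. Its relative znf703 fell by 0.53 ± 0.11 (adjusted p = 0.0424), a call that ended without any single array (adjusted p of 0.0620 to 0.211) and under 3 of 9 other settings. The rhombomere 3 and 5 gene egr2b had 8.25 to 9.10 at 10 µM and 8.13 to 8.46 in DMSO (0.39 ± 0.18, adjusted p = 0.949). The signal gene fgf3, expressed in rhombomere 4, had 0.48 ± 0.20 (adjusted p = 0.833) and the trunk gene cdx4 0.03 ± 0.13. For the midbrain-hindbrain boundary and for forebrain and eye, limma called 0 of 17 and 0 of 22 genes, with 4 and 4 at an unadjusted p under 0.05 and medians of -0.06 and 0.01. Over all tested probe sets 0.397% were called and 5.15% had an unadjusted p under 0.05. The boundary gene gbx2 had 0.27 ± 0.24 and the anterior brain gene otx2b 0.08 ± 0.33. The hairy-related gene her3 had 0.81 ± 0.30 (adjusted p = 0.723) with all antagonist arrays above DMSO.

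In the neural list of 33 tested progenitor and neurogenesis genes, 1 was called lower and 1 higher (median 0.07). The proneural gene neurog1, which drives the formation of primary neurons and cranial ganglia, read 6.66, 6.62, 6.86 and 6.99 at 10 µM, against 8.02, 8.93, 8.13 and 7.94 in DMSO. The groups did not overlap, and neurog1 fell by 1.47 ± 0.22 (adjusted p = 0.00319). The LIM homeobox gene lhx9 was higher, at 5.07, 5.14, 5.28 and 5.17 at 10 µM, against 4.43, 4.66, 4.05 and 4.66 in DMSO. Its rise of 0.71 ± 0.14 (adjusted p = 0.0266) lost its call without any of 6 of the arrays (adjusted p up to 0.121). The call also ended when the 8 arrays were fitted alone (adjusted p = 0.114), and the DMSO arrays lay near log2 4. The motor neuron and oligodendrocyte lineage gene olig2 lay wholly below DMSO without a call (-0.68 ± 0.22, adjusted p = 0.542).

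**Figure D3:**
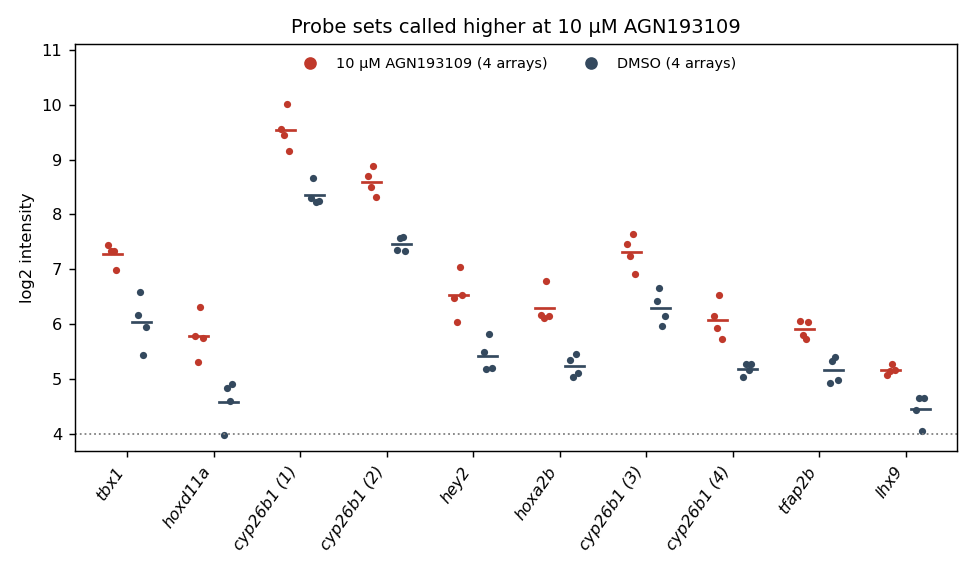
Log2 intensity (vertical axis) of the 10 probe sets called higher, with the 4 arrays at 10 µM AGN193109 in red left of the 4 DMSO arrays in dark blue and group means as bars. Numbers in brackets tell apart the 4 probe sets of cyp26b1, and in all 10 probe sets the antagonist arrays lie above the DMSO arrays.

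Among heart field, T-box and pharyngeal genes, 2 of 13 were called higher and 0 lower (median 0.13). The T-box gene tbx1, known for the pharyngeal region and its arches, read 7.44, 7.34, 7.33 and 6.99 at 10 µM, against 6.16, 6.59, 5.43 and 5.95 in DMSO. The spread lay in the DMSO arrays, yet no array of theirs reached the antagonist range, and tbx1 rose by 1.24 ± 0.20 (adjusted p = 0.00604). The Notch effector gene hey2 read 6.47, 6.04, 7.05 and 6.53 at 10 µM, against 5.50, 5.18, 5.82 and 5.20 in DMSO. It rose by 1.10 ± 0.19 (adjusted p = 0.0119), and its call ended without DMSO replicate 2 or 4 (adjusted p up to 0.0589). Another T-box gene, tbx15, had 0.88 ± 0.22 with no overlap (adjusted p = 0.154). At 1 µM against DMSO tbx15 was called higher by limma, at 1.35 ± 0.22 (adjusted p = 0.0157). Its difference of 10 over 1 µM was -0.47 (95% interval -0.94 to -0.01) and was not called (adjusted p = 0.554). When the 8 arrays were fitted alone, tbx1 and hey2 missed the threshold (adjusted p = 0.0635 and 0.101). Of 17 neural crest genes, 1 was called, the transcription factor gene tfap2b, higher by 0.75 ± 0.16 (adjusted p = 0.0433) with 6.05, 5.80, 5.73 and 6.04 at 10 µM and 4.92, 5.33, 5.40 and 4.98 in DMSO. That call ended without any of 7 of the arrays (adjusted p up to 0.208) and under 4 of 9 other settings (up to 0.0913).

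Signalling genes gave 2 lower and 1 higher of 71 tested (median -0.04), the higher one being hey2 again. The Wnt ligand gene wnt11 read 6.18, 5.55, 6.22 and 6.20 at 10 µM, against 7.64, 8.05, 7.88 and 7.31 in DMSO. It fell by 1.68 ± 0.17 (adjusted p = 3.01e-05), and was also the 1 call among 24 segmentation and tailbud genes (median 0.14). The Fgf receptor gene fgfr3 fell by 0.80 ± 0.16 (adjusted p = 0.0408), with 5.42 to 5.85 at 10 µM and 6.35 to 6.65 in DMSO, and its call ended without any single array (adjusted p of 0.0658 to 0.166). The phosphatase gene dusp2 had 0.70 ± 0.20 (adjusted p = 0.354).

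The other tissue lists had no member called by limma, against 0.397% of all tested probe sets. At that share lists this short often hold 0 calls, so this does not show that these tissues were unaffected. The counts tested were 9 for placodes, 12 for endoderm, 6 for blood and vessels, 6 for kidney, 15 for prechordal plate and notochord, 10 for early muscle, 19 for epidermis and 16 for the yolk syncytial layer. Of those, 0, 0, 3, 1, 4, 4, 0 and 3 had an unadjusted p under 0.05, against 5.15% of all tested probe sets. All 4 of those muscle genes had positive values, with myl10 at 0.87 ± 0.30 (adjusted p = 0.648), whereas the muscle determination gene myod1 had 0.02 ± 0.10. The notochord and tailbud gene tbxta had 10.03 to 10.29 at 10 µM and 10.11 to 10.27 in DMSO. In limma 0 of 28 stress genes (2 at an unadjusted p under 0.05, median 0.03), 0 of 28 cell cycle genes (1, median -0.08) and 0 of 22 reference genes (0, median 0.08) were called. Of the cell cycle genes 25 of 28 had a negative fold change, 24 of 28 under quantile normalization or median centring and 15 of 28 without DMSO replicate 3.

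**Figure D4:**
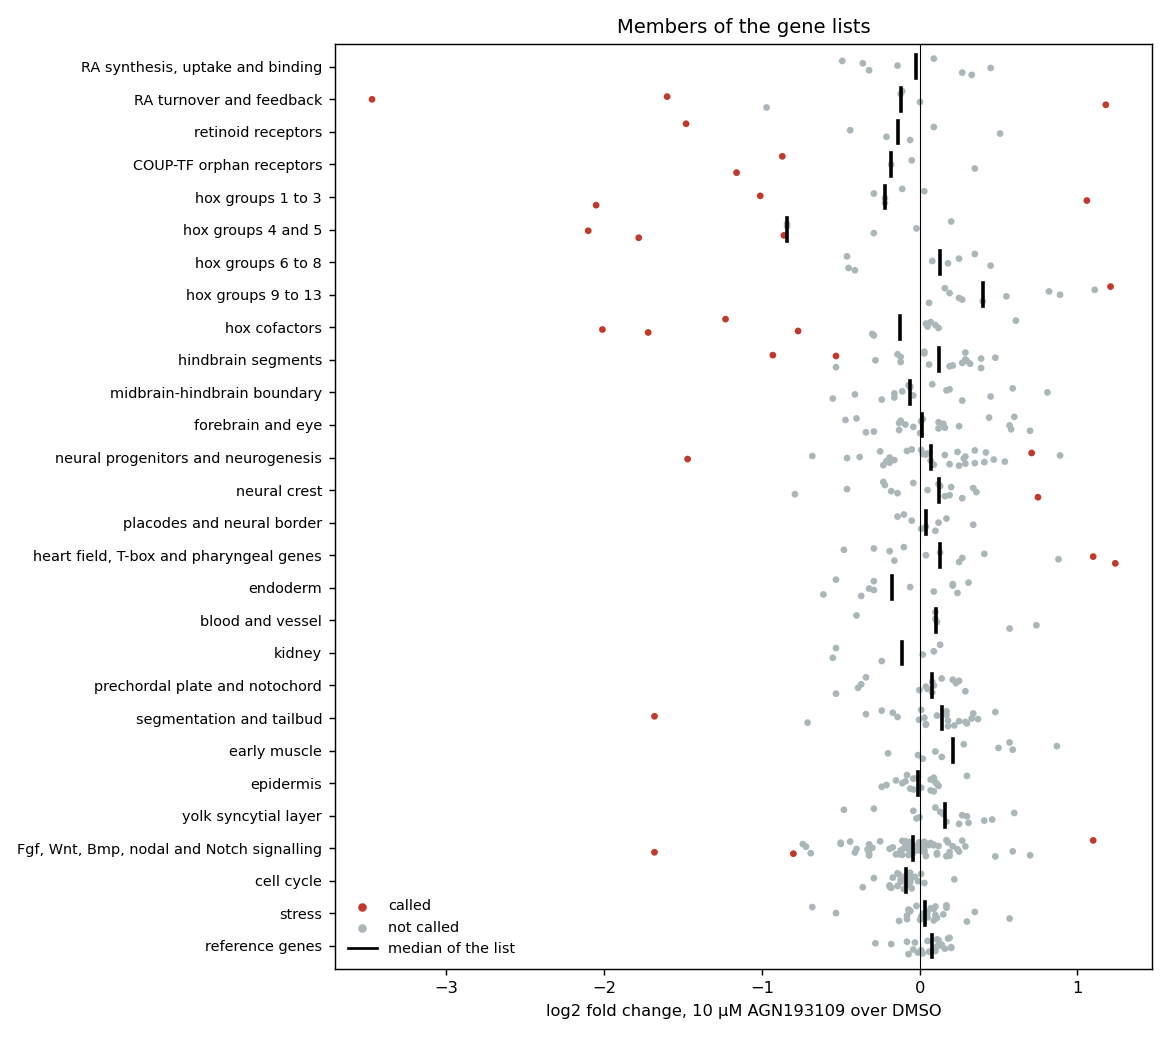
Log2 fold change at 10 µM AGN193109 over DMSO (horizontal axis) of each tested member of the 28 gene lists (rows). Called members are red, others grey, and the black bar is the list's median. The medians of hox groups 4 and 5 and of the list of hox groups 9 to 13 lie at -0.84 and 0.40, and most other medians lie near 0. The tested genes of that last list are all of groups 9 to 11.

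The 5 called genes that no list held were all lower. Their log2 fold changes were -1.33 ± 0.24 for ppm1h (adjusted p = 0.0166), -0.82 ± 0.15 for mpped2 (adjusted p = 0.0149), -0.72 ± 0.13 for spsb4a (adjusted p = 0.0119), -0.64 ± 0.13 for mtmr8 (adjusted p = 0.0424) and -0.61 ± 0.12 for pik3r3a (adjusted p = 0.0262). They encode a protein phosphatase, a metallophosphoesterase, a SOCS box protein, a myotubularin-related protein and a regulatory subunit of phosphoinositide 3-kinase. The arrays of mtmr8 read 6.34, 6.28, 6.26 and 6.30 at 10 µM, against 6.94, 7.06, 6.66 and 7.06 in DMSO, and a second mtmr8 probe set had -0.38 ± 0.25. For acss1, a dimmer probe set was called (-0.61 ± 0.12, adjusted p = 0.0266), while the brightest had -0.56 with an adjusted p of 0.639. Calls of the 5 genes ended without any of 3 of the 8 arrays for spsb4a, 4 for mpped2, 5 for ppm1h and 7 for mtmr8. That of pik3r3a ended without any single array. When the 8 arrays were fitted alone, ppm1h, spsb4a and mtmr8 were not called.

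A probe set without a gene symbol, like dhrs3a, lay below log2 4 on every antagonist array. This unannotated probe set read 3.38, 3.93, 3.15 and 3.66 at 10 µM, against 7.03, 7.38, 7.33 and 6.53 in DMSO. It was at least 8.39-fold lower (adjusted p = 1.17e-07), and since both falls are bounds they are not ranked against each other. The same probe set averaged 2.90 ± 0.08 (SD, n = 4) under RA, and thus lay below the shared DMSO arrays in both treatments. Values for some other called genes, picked as examples, are given as 10 µM and then RA against those same DMSO arrays. They were -2.10 and 3.24 for hoxd4a, -1.78 and 4.74 for hoxa4a, -2.01 and 1.43 for meis3, 1.24 and -2.68 for tbx1 and 1.18 and 0.92 for cyp26b1. These examples do not give the share of called genes that went either way under RA, which was added later, at 6.5 hpf. Over all tested probe sets, 5.75% were called under RA. A second probe set without a symbol read 6.99, 6.58, 6.73 and 6.68 at 10 µM, against 8.84, 8.86, 8.52 and 8.85 in DMSO. Its groups did not overlap, with a log2 fold change of -2.02 ± 0.18 (adjusted p = 1.17e-05).

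The difference between the antagonist doses was tested directly, since both were set against the same DMSO arrays. Of 11843 probe sets 1 was called between 10 and 1 µM, or 0.00844%, and that was the unannotated probe set below log2 4 at 10 µM. Its arrays read 7.03, 7.38, 7.33 and 6.53 in DMSO, 6.56, 6.73, 6.06 and 7.13 at 1 µM and 3.38, 3.93, 3.15 and 3.66 at 10 µM. At 1 µM the arrays overlapped those of DMSO (-0.45, adjusted p = 0.745), and at 10 µM they did not come near either. It was at least 6.15-fold lower at 10 µM than at 1 µM, the bound being taken against log2 4 (adjusted p = 1.88e-06). Against DMSO, 0.144% of the probe sets were called at 1 µM.

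**Figure D5:**
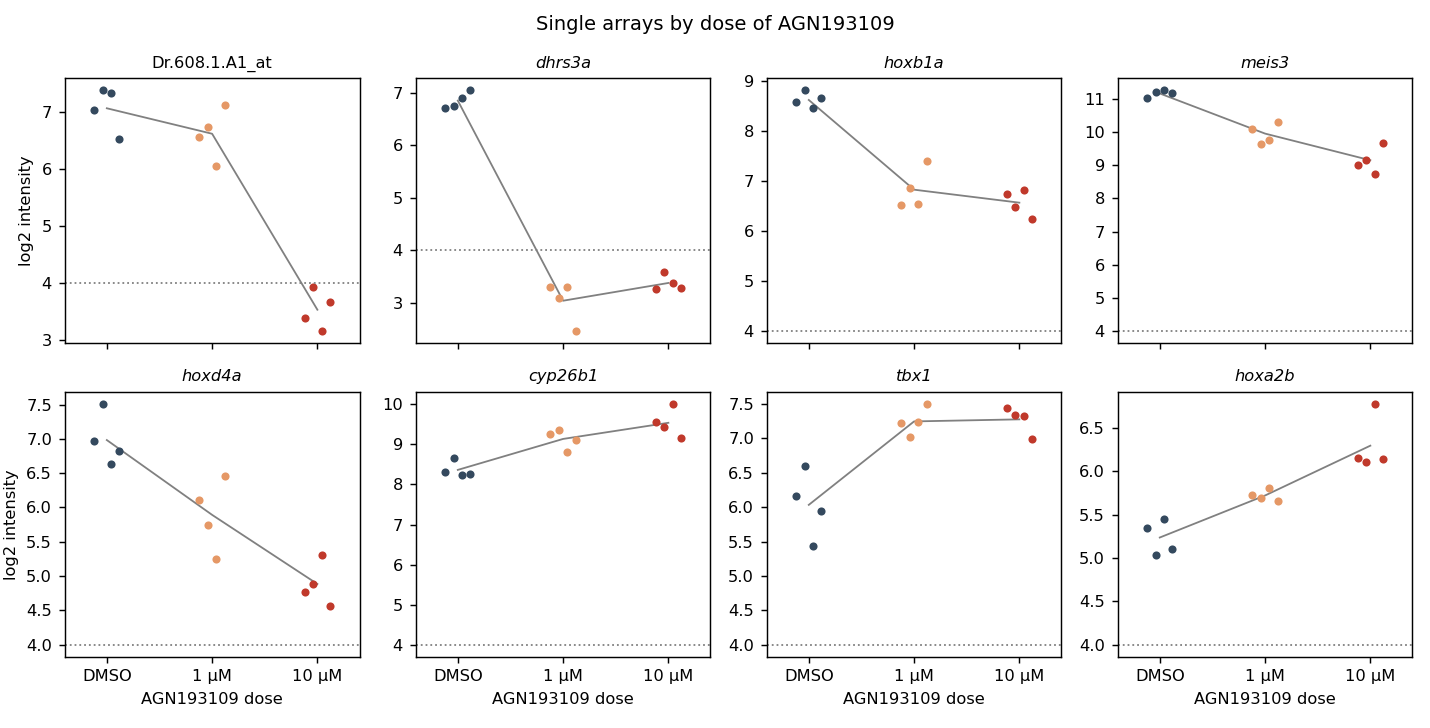
Log2 intensity (vertical axes, each with its own range) of 8 probe sets on single arrays in DMSO, at 1 µM and at 10 µM AGN193109, with a line through the group means and a dotted line at log2 4. Arrays of dhrs3a lie below log2 4 at both doses, whereas those of the unannotated probe set, in the first panel, do so only at 10 µM among these 3 groups.

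The annotated genes were not called between the doses, and their intervals differed in what sizes they allow. For dhrs3a, below log2 4 at both doses, the 1 µM arrays read 3.30, 3.10, 3.31 and 2.46, and values that dim have no order. For tbx1 the difference of 10 over 1 µM was 0.03 (95% interval -0.40 to 0.45), for rxrga -0.11 (-0.43 to 0.20), for hoxa3a -0.10 (-0.45 to 0.25) and for hoxb1a -0.26 (-0.63 to 0.11). Of the 31 called genes, 12 had an interval that leaves out 0, 10 lower and 2 higher at 10 than at 1 µM. The 31 were chosen by their 10 µM arrays, which enter this difference too, and the share over all probe sets is not given. The count of 12 therefore does not measure a response to dose. The 6 with the largest differences were hoxd4a at -1.01 (-1.50 to -0.52), meis3 at -0.80 (-1.19 to -0.41), meis2a at -0.74 (-1.20 to -0.28), wnt11 at -0.60 (-0.96 to -0.24), mtmr8 at -0.59 (-0.86 to -0.31) and hoxa2b at 0.58 (0.23 to 0.92). After adjustment over all probe sets none of the 12 passed (adjusted p of 0.369 to 0.554). The lowest adjusted p was that of mtmr8, whose 1 µM arrays overlapped those of DMSO, with -0.05 for 1 µM against DMSO (adjusted p = 0.949). On a second mtmr8 probe set the difference of 10 over 1 µM was smaller, at -0.21 (-0.74 to 0.32). The 1 µM arrays of hoxd4a read 6.11, 5.75, 5.25 and 6.46, below all DMSO arrays and, except for replicate 3, above all arrays at 10 µM. The second unannotated probe set described above had -1.13 (-1.52 to -0.74, adjusted p = 0.0717).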

How the data were processed

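Intensities were deposited on a linear scale, 1 per probe set and array for 15617 probe sets, made by the authors with GCRMA per the submitters' processing notes (no version stated there). The compound is spelled AGN193019 in the titles and AGN193109 in the series design; the protocol gives doses in mM and the titles in µM, which were used. Log2 intensities were analysed without the 115 control probe sets, keeping those above log2 4 on at least 4 of 16 arrays. Group means of all 16 arrays were fitted with limma 3.58.1 in R 4.3.3 (two-sided, 12 residual and 4.45 prior degrees of freedom). The model was tested on simulated data with known changes. Their noise was independent between arrays, unlike deviations shared between real arrays, so this does not check the calls made here. The number of arrays limits the precision. Folds are bounds, taken against log2 4, where no array of 1 group exceeded that level.

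Of the probe sets, 10802 had 1 symbol, 135 several and 4680 none. Genes named were all called genes, up to 2 uncalled members of each list with the smallest p and the largest calls between doses. A fixed set of RA pathway, hox, brain, tailbud and muscle genes was added, giving 93 in all. Not all of them are described. Outside that rule, acss1, hoxd9a, hoxd10a, hoxa5a and hoxc4a were added after their values were seen. So were hoxb2a, hoxc3a, hoxd3a, hoxc11a, pbx1a, pbx2, pbx3b and pbx4. Members and lists were chosen with earlier results of these data known. Alternatives were other filters, normalizations, scales, weights, a replicate block and leaving out arrays.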

Additional observations from a re-analysis of the deposited data

Results flagged for a closer look

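Single arrays stood apart from the other 3 of their group, by Dixon's test at the 95% level, in 11 of 190 groups of 4 arrays tested, or 5.79%, where chance alone flags about 1 in 20. At 10 µM, replicate 2 was low for wnt11 (5.55, others 6.18 to 6.22) and nrip1b (5.90, others 6.41 to 6.46), and replicate 4 was low for tshz1 (6.93, others 7.22 to 7.25). Replicate 3 at 10 µM was high for hoxa2b (6.78, others 6.11 to 6.16) and dlx5a (5.79, others 5.23 to 5.29). Among DMSO arrays, replicate 3 was high for spsb4a (10.32, others 9.93 to 9.98) and foxc1a (10.53, others 10.26 to 10.27) and low for rarga (7.46, others 7.99 to 8.09). It was also low for the second unannotated probe set (8.52, others 8.84 to 8.86). Replicate 2 in DMSO was high for cyp26b1 (8.67, others 8.23 to 8.30) and nr2f2 (8.34, others 7.66 to 7.76).

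The unannotated probe set below log2 4 at 10 µM differed between the antagonist doses and was at least 6.15-fold lower at 10 µM than at 1 µM (limma, adjusted p = 1.88e-06).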

How the results depend on the processing

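Of the 31 called genes, 16 kept their call without any single array and 15 kept it under every setting run. The number of called probe sets was 47. It ranged from 42 to 49 under other filters, normalizations, an offset of 16, trended and robust variances and the replicate block. When only the 8 arrays were fitted 34 were called, 32 of them shared with the 47. In that fit 4 were called higher, 3 of them shared with the 10 rises above. Array weights gave DMSO replicates 1 to 4 weights of 3.47, 0.969, 0.508 and 1.61. They raised the number of calls to 255 (118 higher, 137 lower, with all 47 included). The cause was not tested. Leaving out 1 array gave 29 to 44 calls, 5 to 10 higher and 24 to 35 lower, the fewest without DMSO replicate 1 (29) and 10 µM replicate 1 (30). Between doses it gave 1 to 3 calls, with 3 without 1 µM replicate 2 and 2 without 1 µM replicate 3, and 1 in the other fits. Same-numbered arrays at 10 µM and in DMSO deviated together at r = 0.343, 0.298, 0.0263 and -0.0084, so not every pair passed 0.1 and the numbers were not taken to pair these groups, although RA and DMSO arrays had 0.134, 0.269, 0.336 and 0.153. The replicate block gave 49 calls (11 higher, 38 lower), 41 of them shared, and nr2f1a, hoxb4a, znf703 and tfap2b were not called under it.

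Some uncalled values near 0 changed sign. For tbxta they were 0.01 with quantile normalization, 0.02 with median centring and 0.00 with array weights, and -0.04 to 0.04 without single arrays. For cyp26c1 they were -0.03 with quantile normalization, -0.02 with the offset and -0.25 to 0.29 without single arrays. For cdx4 the value was -0.03 with quantile normalization and -0.08 to 0.09 without single arrays. Without single arrays myod1 ran from -0.02 to 0.06 and otx2b from -0.05 to 0.24. The median of all probe sets moved by under 0.1 under each scaling. Precision is limited by 4 arrays a group, and signals near log2 4 give only bounds.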

Other observations

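Beyond the called genes, 11 probe sets differed by at least 2-fold without a call, 8 lower and 3 higher; they were chosen after their values were seen. The glyceraldehyde-3-phosphate dehydrogenase gene gapdhs read 7.03, 9.27, 6.09 and 8.62 at 10 µM, against 8.39, 8.65, 9.21 and 9.79 in DMSO (-1.26 ± 0.65, adjusted p = 0.973). The enolase gene eno1a read 8.20, 9.29, 6.90 and 9.88 at 10 µM, against 9.45, 9.16, 9.82 and 10.04 in DMSO (-1.05 ± 0.48, adjusted p = 0.936). In both genes replicates 1 and 3 at 10 µM were low and replicates 2 and 4 lay inside the DMSO range. Such spread was not limited to 10 µM. At 1 µM gapdhs ran from 7.16 to 10.07, while eno1a ran from 8.38 to 9.57. The aldolase gene aldocb had -1.23 ± 0.48 and -1.13 ± 0.45 on its 2 probe sets. On the first of these the 1 µM arrays ran from 5.53 to 8.08.

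The small heat shock protein gene hspb8 read 7.16, 5.58, 7.06 and 6.08 at 10 µM, against 5.22 ± 0.20 in DMSO (SD, n = 4; 1.25 ± 0.31, adjusted p = 0.150). Here replicates 1 and 3 at 10 µM were the high ones, and no antagonist array overlapped DMSO. The gene oc90, which encodes an otoconial matrix protein, read 6.47, 6.29, 6.93 and 5.88 at 10 µM, against 7.70, 8.55, 7.02 and 8.12 in DMSO (-1.46 ± 0.36, adjusted p = 0.151). The phosphatase gene pgp came closest to a call, at -1.03 ± 0.22 (adjusted p = 0.0585), with 6.65 to 7.67 at 10 µM and 7.81 to 8.86 in DMSO.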
